A study of Mus musculus with 12 samples.

Results

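The 32 genes described here are astrocyte genes, of which 10 are reactive genes, known to be switched on or raised when astrocytes respond to injury, and 22 are genes of resting astrocytes. They were chosen by symbol, with earlier results of these data known, so shares of called members below are descriptions. All 32 were found among the 52169 gene symbols of the transcript table. For each gene the transcript with the highest mean level was followed. RNA was sequenced from striatal punches of female C57BL/6J mice, whose age is not given in the sources used here. Each mouse had received 6-hydroxydopamine (6-OHDA), a toxin of catecholamine neurons, into the medial forebrain bundle of the right hemisphere, after desipramine at 25 mg/kg to spare noradrenaline neurons, and had recovered for 2 weeks. All mice then received L-DOPA at 10 mg/kg with benserazide at 7.5 mg/kg, either as a single dose (acute L-DOPA) or daily for 9 days (chronic L-DOPA), and tissue was taken 1 h after the last injection. The 4 groups were the unlesioned and the lesioned striatum after acute L-DOPA and the unlesioned and the lesioned striatum after chronic L-DOPA, with 3 libraries each. No group without L-DOPA was analysed here, so in a difference between the hemispheres the lesion and the response of the lesioned side to L-DOPA cannot be told apart, and the unlesioned striatum came from a lesioned brain.

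Astrocytes take up glutamate and potassium, convert glutamate to glutamine, share metabolites through gap junctions and secrete lipoproteins and matrix. When neurons or their terminals are damaged, astrocytes become reactive. They then build intermediate filaments from Gfap and vimentin and secrete protease inhibitors and acute-phase proteins. Cytokines of the interleukin-6 family that signal through gp130 and the transcription factor Stat3 are a well known trigger of this state, and Osmr, the receptor for oncostatin M, belongs to that system. In bulk tissue, more RNA per astrocyte and more astrocytes cannot be told apart, and most of these genes are also expressed at some level in other brain cells.

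Promoters are shown for 3 reactive genes that were higher in lesioned striatum (Gfap, Vim and Timp1) and for 2 that were high in particular libraries (Lcn2 and Steap4). Each runs 5′ to 3′ on the gene's strand from 250 bases before to 30 bases after the RefSeq transcription start, in build GRCm38.p6. Capitals mark matches, on either strand, to any of 4 motifs. The STAT motif was searched as TTCNNNGAA. The motif of AP-1 was searched as TGANTCA. For the CRE motif the letters were TGACGTCA. A TATA box was taken as TATAAA.
Gfap, chr11:102897171-102897450, minus strand: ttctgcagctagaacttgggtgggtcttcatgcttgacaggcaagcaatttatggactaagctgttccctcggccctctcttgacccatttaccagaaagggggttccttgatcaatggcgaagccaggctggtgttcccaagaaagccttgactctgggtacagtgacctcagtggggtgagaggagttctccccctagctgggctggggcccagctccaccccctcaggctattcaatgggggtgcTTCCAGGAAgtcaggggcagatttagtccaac
Vim, chr2:13574061-13574340, plus strand: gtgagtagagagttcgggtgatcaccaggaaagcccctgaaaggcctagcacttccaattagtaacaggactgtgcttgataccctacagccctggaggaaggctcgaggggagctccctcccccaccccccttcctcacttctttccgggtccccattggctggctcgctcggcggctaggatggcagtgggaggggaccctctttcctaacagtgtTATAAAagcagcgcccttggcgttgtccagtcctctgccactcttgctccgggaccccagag
Timp1, chrX:20869916-20870195, plus strand: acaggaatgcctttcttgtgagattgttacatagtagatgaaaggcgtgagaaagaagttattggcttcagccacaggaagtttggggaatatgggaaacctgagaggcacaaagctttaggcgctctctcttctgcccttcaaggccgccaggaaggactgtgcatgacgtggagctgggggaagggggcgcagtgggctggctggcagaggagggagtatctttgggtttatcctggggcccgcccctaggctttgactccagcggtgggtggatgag
Lcn2, chr2:32387710-32387989, minus strand: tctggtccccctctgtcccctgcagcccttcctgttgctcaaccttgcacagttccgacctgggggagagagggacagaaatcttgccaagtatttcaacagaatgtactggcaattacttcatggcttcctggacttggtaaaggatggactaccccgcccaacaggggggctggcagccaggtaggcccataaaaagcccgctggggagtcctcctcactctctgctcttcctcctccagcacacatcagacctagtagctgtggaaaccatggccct
Steap4, chr5:7960222-7960501, plus strand: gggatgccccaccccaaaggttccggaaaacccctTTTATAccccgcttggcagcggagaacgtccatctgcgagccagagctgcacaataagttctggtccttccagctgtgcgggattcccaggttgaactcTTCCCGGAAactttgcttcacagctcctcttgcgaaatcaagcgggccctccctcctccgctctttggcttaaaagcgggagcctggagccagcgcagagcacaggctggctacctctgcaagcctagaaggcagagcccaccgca

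The STAT letters began 2 bases before the start of Gfap and 116 bases before the start of Steap4, and the TATA letters 32 bases before the start of Vim and, on the reverse strand, 215 bases before that of Steap4. Promoters of 28 of the 32 genes were in the RefSeq table, with 36 entries, and those of Aqp4, Sox9, Clu and Cspg5 were not matched. Over the full windows of the table, all of 300 bases, 7 of the 36 entries held the STAT letters (Acsbg1, Agt, Aldoc, Gfap, Ntsr2, Slc1a3 and Steap4), against 8.3% of all 32851 promoters. The AP-1 letters were in 3 entries (Cp, Gja1 and Osmr) against 7.81% of all, the CRE letters in 0 against 1.79%, and the TATA letters in 7 against 13.6%. None of the 4 was in the window of Timp1 or Lcn2. A match of letters is a description of the sequence, and these data do not measure binding.

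The libraries held between 87695043 and 173116525 counts over transcripts, with a read counted on every transcript it overlapped. A level of 3 counts corresponded to 0.0173 to 0.0342 CPM, below which a gene was not separable from 0. Levels are in CPM, the count divided by the library total after scaling by edgeR's TMM factors. Spiny neuron markers were abundant in every library, with a summed level of 1573 to 2309 CPM, as the labelled tissue would have. A few libraries stood apart. Choroid plexus markers summed to 487 CPM in replicate 2 of the chronic unlesioned striatum and to 3.87 to 11.8 CPM in the other libraries. Markers of cortical glutamatergic neurons summed to 2.30 to 44.1 CPM, and were lower in the lesioned library in all 3 same-number pairs after acute and all 3 after chronic L-DOPA. Their median log2 fold changes between the hemispheres were −1.35 and −1.52, with 1 and 0 of 7 tested markers called lower by edgeR (4 and 2 at an unadjusted p under 0.05), against 7.16% and 5.2% of all genes. With the replicate number fitted as a block, which compares same-numbered libraries, 6 and 5 were called lower, against 11.8% and 11.4% of all genes, and their part in the differences between the hemispheres was not tested. Replicate 2 of both acute groups shared a set of high genes described below.

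After acute L-DOPA, Gfap, Vim and Serpina3n were more than doubled in the lesioned striatum, and 8 resting genes rose by smaller amounts. Gfap, the main intermediate filament protein of astrocytes (chromosome 11, 102748650 to 102758514, minus strand, in build mm9), was at 17.6, 15.2 and 16.3 CPM in the unlesioned and at 50.6, 28.9 and 36.1 CPM in the lesioned libraries. Every lesioned library was above every unlesioned library. The ratio of the group means was 2.35, and the log2 fold change was 1.25 (SE 0.15, edgeR quasi-likelihood test with Benjamini-Hochberg adjusted p = 0.000302 over all transcripts tested). Vim, which encodes vimentin, a second filament protein that also marks ependyma and vessels (chromosome 2, 13495579 to 13504434, plus strand), was at 4.87, 6.94 and 3.71 CPM unlesioned and at 10.4, 11.5 and 12.6 CPM lesioned. Its groups did not overlap either, with a log2 fold change of 1.16 (SE 0.17, edgeR adjusted p = 0.000846). Serpina3n, a secreted serine protease inhibitor (chromosome 12, 105644918 to 105652539, plus strand), was at 0.953, 1.84 and 0.973 CPM unlesioned and 2.52, 2.62 and 2.89 CPM lesioned. Its log2 fold change was 1.11 (SE 0.20, edgeR adjusted p = 0.00426). All 3 changes were called with each library left out in turn.

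**Figure D1:**
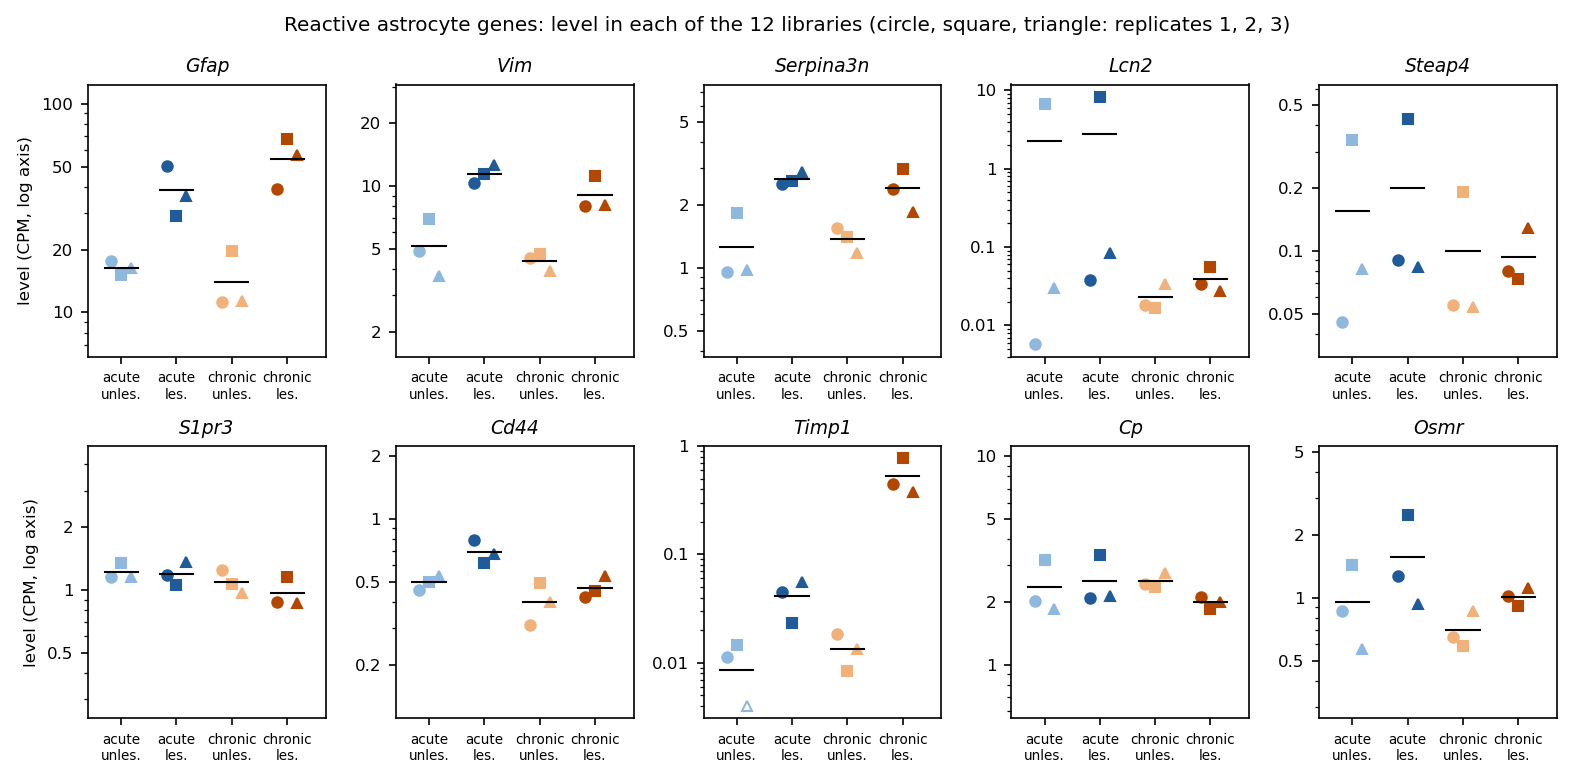
Level of the 10 reactive genes in the 12 libraries, in CPM on a log axis, by group, with circles, squares and triangles for replicates 1, 2 and 3 and a bar at the group mean. The open symbol for Timp1 is a library with 0 counts, drawn at the lower edge. Gfap and Vim were above every unlesioned library of the same treatment in all lesioned libraries, Timp1 was high in chronic lesioned striatum, and Lcn2 was high in both acute replicate 2 libraries.

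The remaining reactive genes were not called after acute L-DOPA. Cd44, a cell surface receptor for hyaluronan, was at 0.457, 0.500 and 0.531 CPM unlesioned and at 0.795, 0.613 and 0.678 CPM lesioned. These libraries did not overlap, but the log2 fold change of 0.51 (SE 0.16) had an edgeR adjusted p of 0.0506. Osmr was at 0.862, 1.44 and 0.569 CPM unlesioned and at 1.28, 2.49 and 0.929 CPM lesioned. Each lesioned library of Osmr was above the unlesioned library of the same number, although the groups overlapped (log2 fold change 0.69, SE 0.34, edgeR adjusted p = 0.209). S1pr3, a sphingosine 1-phosphate receptor, differed by −0.01 (SE 0.13), and Cp, which encodes the copper-binding ferroxidase ceruloplasmin, by 0.10 (SE 0.21). Timp1 was below the filter on low counts in this comparison, with 2, 2 and 0 counts in the unlesioned and 6, 2 and 6 counts in the lesioned libraries.

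Of the 22 resting genes, 8 were higher and 0 lower on the lesioned side after acute L-DOPA. Clu, which encodes the secreted chaperone clusterin, was at 133, 126 and 121 CPM unlesioned and at 205, 178 and 172 CPM lesioned (log2 fold change 0.56, SE 0.08, edgeR adjusted p = 0.000590). Apoe, the main lipid carrier of the brain, was at 221, 244 and 251 CPM unlesioned and at 338, 326 and 338 CPM lesioned (log2 fold change 0.49, SE 0.07, edgeR adjusted p = 0.000514). For both secreted proteins the lesioned libraries lay above all unlesioned ones. The gap junction genes Gjb6 (connexin 30) and Gja1 (connexin 43) rose by 0.47 (SE 0.07) and 0.40 (SE 0.06) on the log2 scale. Mlc1, a membrane protein of astrocyte endfeet, rose by 0.36 (SE 0.07). Ndrg2, a cytoplasmic astrocyte protein, rose by 0.37 (SE 0.09), Id3, an inhibitor of basic helix-loop-helix factors, by 0.34 (SE 0.09), and the glycolytic enzyme gene Aldoc by 0.22 (SE 0.07). The calls of these 3 were the fragile ones, since leaving out single libraries ended that of Aldoc in 5 of 6 cases, that of Id3 in 4 and that of Ndrg2 in 2. Among the 14 resting genes not called, log2 fold changes lay between −0.03 for Slc4a4, a bicarbonate transporter, and 0.28 for Sox9, a transcription factor of the astrocyte lineage. The glutamate transporters Slc1a2 and Slc1a3 and glutamine synthetase (Glul) had values of 0.17 (SE 0.10), 0.20 (SE 0.07) and 0.15 (SE 0.07).

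In total 31 of the 32 genes were tested after acute L-DOPA, and 11 were called higher (35.5%) and 0 lower. DESeq2 gave the same counts. At an unadjusted p under 0.05 there were 16 genes, none of them lower, against 36881 of all 129674 transcripts tested in either direction. Of all genes tested with 1 transcript each, 8.16% were called higher and 7.16% lower. The median log2 fold change was 0.51 over the 9 reactive and 0.24 over the 22 resting genes tested, against 0.02 over all 20402 genes. The lesioned libraries were all above the unlesioned ones for 15 of the 31 genes, against 16.7% of all genes, and below for 0, against 18.4%. Libraries with the same number deviated together from their group means, so that the replicate number was also fitted as a block. With that block 18 genes were called higher, against 13.2% of all genes, and Cd44 (edgeR adjusted p = 0.0377), Osmr (edgeR adjusted p = 0.000580), Slc1a3, Aqp4, Sox9, S100b and Ntsr2 joined the others. Without replicate 2 of both acute groups, 8 genes were called higher, and Aldoc, Ndrg2 and Id3 were lost.

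**Figure D2:**
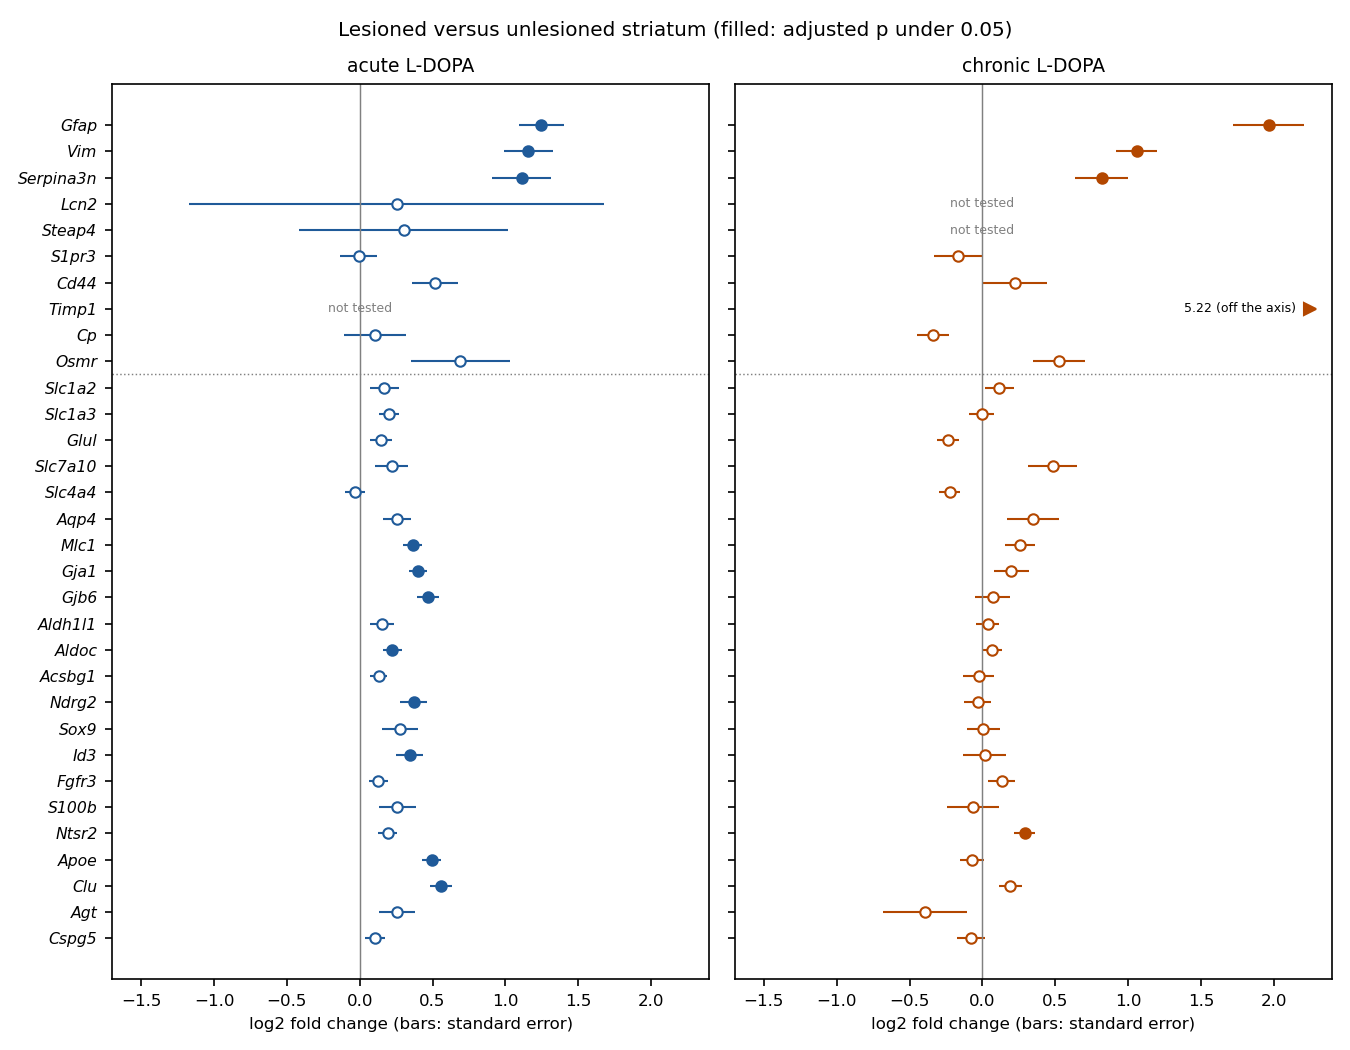
Log2 fold change of lesioned over unlesioned striatum for the 32 genes after acute (left) and chronic L-DOPA (right), with bars for the standard error and filled points at an adjusted p under 0.05. Reactive genes stand above the dotted line and resting genes below it, and an arrow marks Timp1 at 5.22. After acute L-DOPA 29 of 31 genes had values above 0, and after chronic L-DOPA 19 of 30.

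Other lists moved in the same comparison. Among 14 microglia markers 7 were higher, with Cd68 (0.65, SE 0.10), C1qa (0.47, SE 0.08) and C1qc (0.41, SE 0.10) leading. Their summed level was 138 to 145 CPM in unlesioned and 154 to 187 CPM in lesioned libraries, and none of the 14 was at 0 in any library. Apoe is also expressed by microglia, and the part of microglia in its change was not tested. Of 10 oligodendrocyte markers 1 was higher, although the log2 fold change was above 0 for all 10 (median 0.31), and their summed level overlapped (2264 to 2551 CPM unlesioned, 2292 to 3808 CPM lesioned). Ependymal markers, which share Vim with astrocytes, summed to 2.87 to 7.50 CPM unlesioned and 6.49 to 13.4 CPM lesioned, with 1 of 6 called. Of 8 fibroblast and pericyte markers, some of which accompany the vessels that also hold Vim, 3 were higher, which were Col1a1 (0.73, SE 0.19), Acta2 (0.56, SE 0.13) and Col1a2 (0.45, SE 0.13), and all 8 were above 0. Of 10 endothelial markers 0 were called (2 higher with the replicate block), with a median log2 fold change of 0.14 and all 10 above 0. The part of ependymal and vessel cells in the change of Vim was not tested. With the replicate block 4 of the fibroblast and pericyte markers, 10 of the microglia, 7 of the oligodendrocyte and 4 of the ependymal markers were higher. Of 25 genes from published panels of reactive astrocytes, 23 were tested and 9 were higher. Ptgs2, the inducible cyclooxygenase, which neurons also express, rose by 2.32 (SE 0.45) and Cd109 by 1.41 (SE 0.39) on the log2 scale. Tgm1, a transglutaminase, is counted among the 9 with a fitted value of 3.10 (SE 0.55), but 2 of its 3 unlesioned libraries were below 3 counts and it passed the filter on low counts only through the lesioned group, so neither its size nor its call is firm. Of 20 further astrocyte genes 3 were higher, which were Slc15a2 (0.50, SE 0.10), Plcd4 (0.36, SE 0.07) and Cldn10 (0.34, SE 0.07). With the replicate block 15 of the panel genes were higher, and 8 of the further astrocyte genes were higher and 1 lower. In the gp130 and Stat3 system, 3 of 14 tested genes rose. These were the cytokine genes Cntf (1.14, SE 0.30, edgeR adjusted p = 0.0294) and Ctf1 (1.08, SE 0.32, edgeR adjusted p = 0.0443), both at low level, and the receptor gene Cntfr (0.24, SE 0.07, edgeR adjusted p = 0.0479).

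After chronic L-DOPA the lesioned striatum again had more Gfap, Vim and Serpina3n, and in addition Timp1, while 1 of the 22 resting genes was called (8 with the replicate block, 5 higher and 3 lower). Gfap was at 11.2, 19.6 and 11.4 CPM unlesioned and at 39.1, 67.8 and 57.2 CPM lesioned, without overlap (ratio of means 3.89, log2 fold change 1.96, SE 0.24, edgeR adjusted p = 0.000445). The unlesioned library at 19.6 CPM was replicate 2, the one with choroid plexus markers, and without it the value was 2.28 (SE 0.20). Vim was at 4.52, 4.72 and 3.93 CPM unlesioned and at 8.05, 11.1 and 8.13 CPM lesioned (log2 fold change 1.06, SE 0.14, edgeR adjusted p = 0.000712). Serpina3n was at 1.54, 1.40 and 1.17 CPM unlesioned and at 2.39, 2.97 and 1.86 CPM lesioned (log2 fold change 0.82, SE 0.18, edgeR adjusted p = 0.0151). The groups did not overlap for either gene. The call of Serpina3n was lost without replicate 3 of the unlesioned group.

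Timp1, which encodes a secreted inhibitor of matrix metalloproteinases (chromosome X, 20447292 to 20451863, plus strand), gave 2, 1 and 2 counts in the chronic unlesioned libraries and 39, 84 and 41 counts in the chronic lesioned libraries. In CPM the latter were 0.445, 0.769 and 0.376, all far above the 9 other libraries, whose highest value was 0.0557 in acute lesioned striatum. The unlesioned counts were at or below the level of 3 counts, so the size of the change is known only roughly. The ratio of summed counts, after scaling for the TMM-normalised library totals, was 40.4, with an exact 95% interval from counting error alone of 17.0 to 126. The fitted log2 fold change of 5.22 depends on the prior count (edgeR adjusted p = 5.47e-05). Timp1 passed the filter on low counts here only through the lesioned libraries, so that its call carries little beyond the counts themselves. After acute L-DOPA the ratio scaled in the same way was 4.79, with an interval of 1.51 to 20.0. The gene lies inside Syn1, a neuronal gene on the opposite strand, and the use of strand in counting was not given in the sources used here. The part of reads from Syn1 in the Timp1 counts was not tested.

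Among resting genes only Ntsr2, a neurotensin receptor of astrocytes, was called after chronic L-DOPA, at 18.3, 18.9 and 18.2 CPM unlesioned and 22.1, 22.6 and 22.9 CPM lesioned (log2 fold change 0.29, SE 0.07, edgeR adjusted p = 0.0239). This call was lost in 4 of the 6 fits that left out a library. Clu had a log2 fold change of 0.19 (SE 0.08) and Apoe of −0.07 (SE 0.08). Slc7a10, a serine and alanine transporter, was at 2.88, 4.53 and 3.41 CPM unlesioned and 4.07, 5.58 and 5.40 CPM lesioned (log2 fold change 0.48, SE 0.17, edgeR adjusted p = 0.0964). Its high unlesioned library was again replicate 2, and without that library Slc7a10 was called with a log2 fold change of 0.67 (SE 0.15).

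Of the 30 genes tested after chronic L-DOPA, 5 were higher (16.7%) and 0 lower, against 8.46% and 5.2% of all genes. DESeq2 called 6 higher and 0 lower. An unadjusted p under 0.05 in either direction was found for 12 genes, against 33011 of all 127063 transcripts tested. Of the 5 edgeR calls, 4 were reactive genes, out of 8 tested and with Timp1 (described above) among them, and 1 was a resting gene, out of 22. The median log2 fold change was 0.67 over the 8 reactive genes tested and, without Timp1, 0.53 (the value of Osmr), and it was 0.03 over the resting genes, against −0.01 over all genes. Lesioned libraries were all above the unlesioned ones for 8 genes (16.3% of all genes) and all below for 3 genes (15.9% of all genes). With the replicate block, 10 genes were higher and 4 lower, against 12.8% and 11.4% of all genes. The added genes were Osmr, Slc7a10, Aqp4, Mlc1 and Clu among the higher, and Cp, Glul, Slc4a4 and Agt among the lower. Glul was at 203, 210 and 208 CPM unlesioned and 180, 181 and 167 CPM lesioned, and its log2 fold change was −0.23 (SE 0.08, edgeR adjusted p = 0.0734, and 0.0142 with the block). Agt, the angiotensinogen gene, had −0.39 (SE 0.29, edgeR adjusted p = 0.440) without and −0.40 (edgeR adjusted p = 0.00420) with the block.

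No microglia marker of 14 was called after chronic L-DOPA with edgeR (2 higher at an unadjusted p under 0.05 and 3 higher with the block), and their summed level was 94.3 to 118 CPM unlesioned and 100 to 128 CPM lesioned. Of 10 oligodendrocyte markers, 0 were called by edgeR (0 at an unadjusted p under 0.05 and 5 lower with the block), and their summed level was 1717 to 2457 CPM unlesioned and 1288 to 2270 CPM lesioned. Of 8 fibroblast and pericyte markers 1 was higher, Col1a1 (1.12, SE 0.22). Of 10 endothelial markers 0 were called by edgeR (1 higher with the block), with a median of 0.14. Of the gp130 and Stat3 genes, the kinase gene Jak2 rose by 0.50 (SE 0.08), Stat3 by 0.40 (SE 0.09) and Cntfr by 0.32 (SE 0.07) on the log2 scale. Stat3 was at 13.2, 11.2 and 13.2 CPM unlesioned and 15.9, 16.0 and 17.6 CPM lesioned. Of the reactive panels, 1 of 21 tested genes was higher, Ptgs2 by 4.79 (SE 0.24), and 1 was lower, S100a10, which encodes an annexin partner, with a log2 fold change of −0.58 (SE 0.15). Of 20 further astrocyte genes Gpr56 was higher by 0.52 (SE 0.10), and 3 were lower, among them the Notch target Hes5 (−0.76, SE 0.10) and the Hedgehog factor gene Gli3 (−0.52, SE 0.12). With the replicate block 5 of the panel genes were higher and 1 lower, and 3 of the further astrocyte genes were higher and 4 lower.

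Lcn2, which encodes lipocalin 2, a secreted acute-phase protein that binds iron carriers (chromosome 2, 32240157 to 32243290, minus strand), was high in replicate 2 of both acute groups, and its lesion effect was not resolved. It was at 0.00571, 6.69 and 0.0299 CPM in the acute unlesioned and 0.0379, 8.28 and 0.0836 CPM in the acute lesioned libraries. Replicate 2 held 923 counts in the unlesioned and 716 counts in the lesioned striatum, while no other of the 12 libraries had more than 9 counts. The lower of the high pair was 80.0 times the highest other library. Each acute lesioned library was above the unlesioned library of the same number. The lesion effect after acute L-DOPA was 0.25 (SE 1.43, edgeR adjusted p = 0.931) and, with the replicate block, 0.37 (edgeR adjusted p = 0.0767). It was −5.21 (SE 2.37) without the lesioned and 7.26 (SE 2.37) without the unlesioned replicate 2 library. Without both, Lcn2 did not pass the filter on low counts. Lcn2 did not pass the filter after chronic L-DOPA, where its 6 libraries were between 0.0168 and 0.0549 CPM.

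Steap4, a metalloreductase gene, Osmr and Cp were the other members with both acute replicate 2 libraries above all 10 others. Steap4 was at 0.341 and 0.428 CPM there and at 0.0457 to 0.193 CPM elsewhere, Osmr at 1.44 and 2.49 against at most 1.28 CPM, and Cp at 3.19 and 3.36 against at most 2.75 CPM. All 4 such members were reactive genes and none of the 22 resting genes had this pattern. Over all 52169 genes, 583 (1.12%) did. In 21 of them both libraries were at least 3 times every other library, and the leading genes after Lcn2 were Sele, Tnfsf8, Selp, Serpina3f and Cxcl1, which include endothelial adhesion molecules and a chemokine. Socs3, a feedback inhibitor induced by Stat3, was at 2.41 and 2.86 CPM against at most 0.339 CPM, and Cd14, a co-receptor for bacterial lipopolysaccharide, at 3.36 and 4.12 against at most 0.840 CPM. Socs3, Cd14 and the leading genes were picked with their values in view, so no test was made. Gfap, at 15.2 and 28.9 CPM, was the lowest of its group in both of these libraries. The pattern was present in both hemispheres at similar height.

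**Figure D3:**
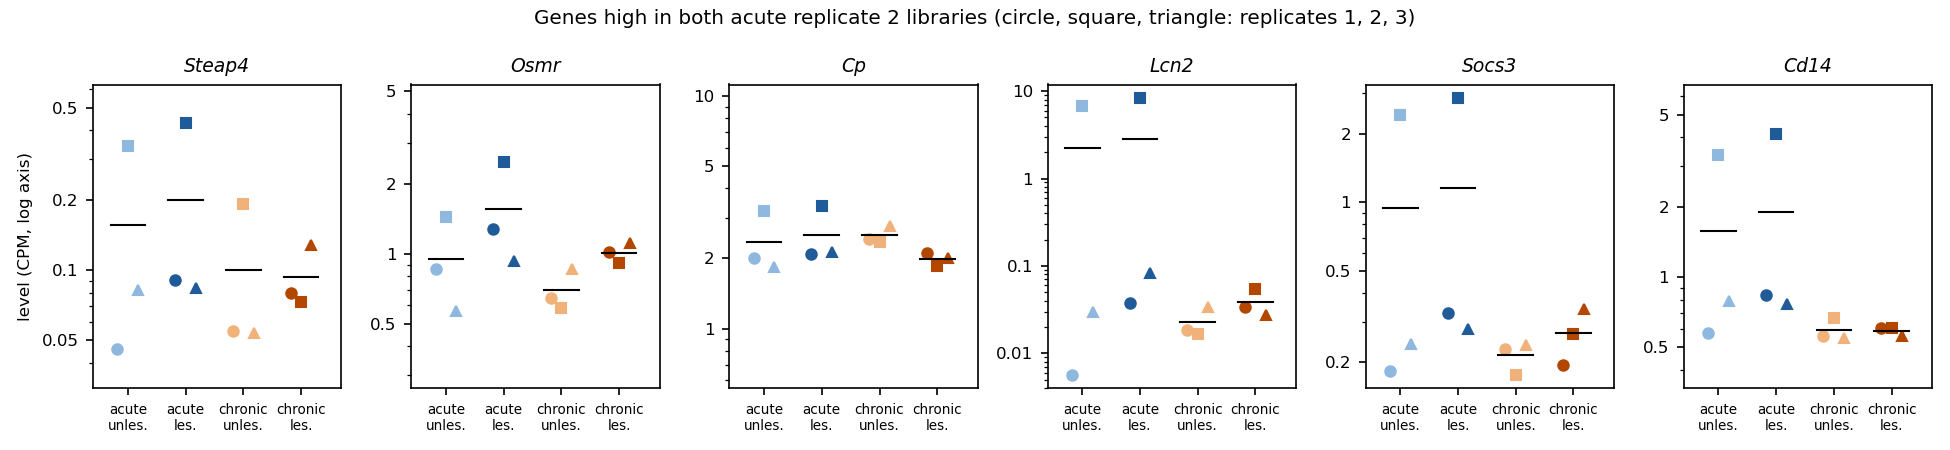
Level in CPM on a log axis of 4 reactive genes and of Socs3 and Cd14 in the 12 libraries, with a bar at the group mean. The squares of both acute groups (replicate 2) lie above all other libraries, by 80.0 times for Lcn2 and by 1.12 times for Osmr.

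Lesioned striatum was then compared between chronic and acute L-DOPA, which came from different mice. Of the 22 resting genes, 11 were lower after chronic L-DOPA and 10 were not called, and Timp1 was higher. Timp1 had 164 counts in all after chronic and 14 after acute L-DOPA, a ratio of 12.5 after scaling for the library totals, with an exact counting interval of 7.24 to 23.4. It passed the filter on low counts only through the chronic libraries, so its edgeR call (adjusted p = 0.000211) is given as a description. Fgfr3, a fibroblast growth factor receptor, was the only other member called higher, at 16.4, 14.4 and 15.2 CPM after acute and 19.9, 17.6 and 19.6 CPM after chronic L-DOPA (log2 fold change 0.31, SE 0.08, edgeR adjusted p = 0.0194), a call lost in 4 of 6 fits without a library. Gfap was at 28.9 to 50.6 CPM after acute and 39.1 to 67.8 CPM after chronic L-DOPA, which overlapped (log2 fold change 0.50, SE 0.21, edgeR adjusted p = 0.107). Among the lower resting genes, S100b, a calcium-binding protein of astrocytes and some oligodendrocytes, fell from 40.4, 28.6 and 27.9 CPM to 14.9, 23.3 and 18.9 CPM (log2 fold change −0.76, SE 0.17, edgeR adjusted p = 0.00920). Gja1 fell from 46.0, 42.9 and 43.7 CPM to 26.3, 34.7 and 26.1 CPM (log2 fold change −0.60, SE 0.11, edgeR adjusted p = 0.00348). The groups of both genes were separate.

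Ndrg2 (−0.56, SE 0.11), Clu (−0.46, SE 0.08), Glul (−0.41, SE 0.09), Apoe (−0.38, SE 0.08) and Mlc1 (−0.38, SE 0.10) were also lower after chronic L-DOPA. The remaining lower resting genes were Acsbg1, an acyl-CoA synthetase gene (−0.37, SE 0.09), Cspg5, a proteoglycan gene (−0.34, SE 0.09), Aldh1l1, a folate enzyme gene (−0.33, SE 0.10), and Slc1a3 (−0.28, SE 0.09). Of the 6 fits that left out a library, Slc1a3 was called in 1, Aldh1l1 in 2, and Mlc1 and Cspg5 in 3 each, and without replicate 1 of the chronic group 7 genes in all were lower. Of the reactive genes, Cd44 was lower (−0.58, SE 0.18, edgeR adjusted p = 0.0416), a call that was lost with any single library left out. Slc1a2, which supplies most glutamate uptake, had 0.05 (SE 0.11). In all, 2 of 30 genes were higher, Timp1 among them, and 12 lower, against 12.5% and 13.1% of all genes. The lesioned chronic libraries were all above the acute ones for 2 genes and all below for 13, against 20.2% and 21.7% of all genes. The median of the 30 genes was −0.32, against −0.02 over all genes.

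**Figure D4:**
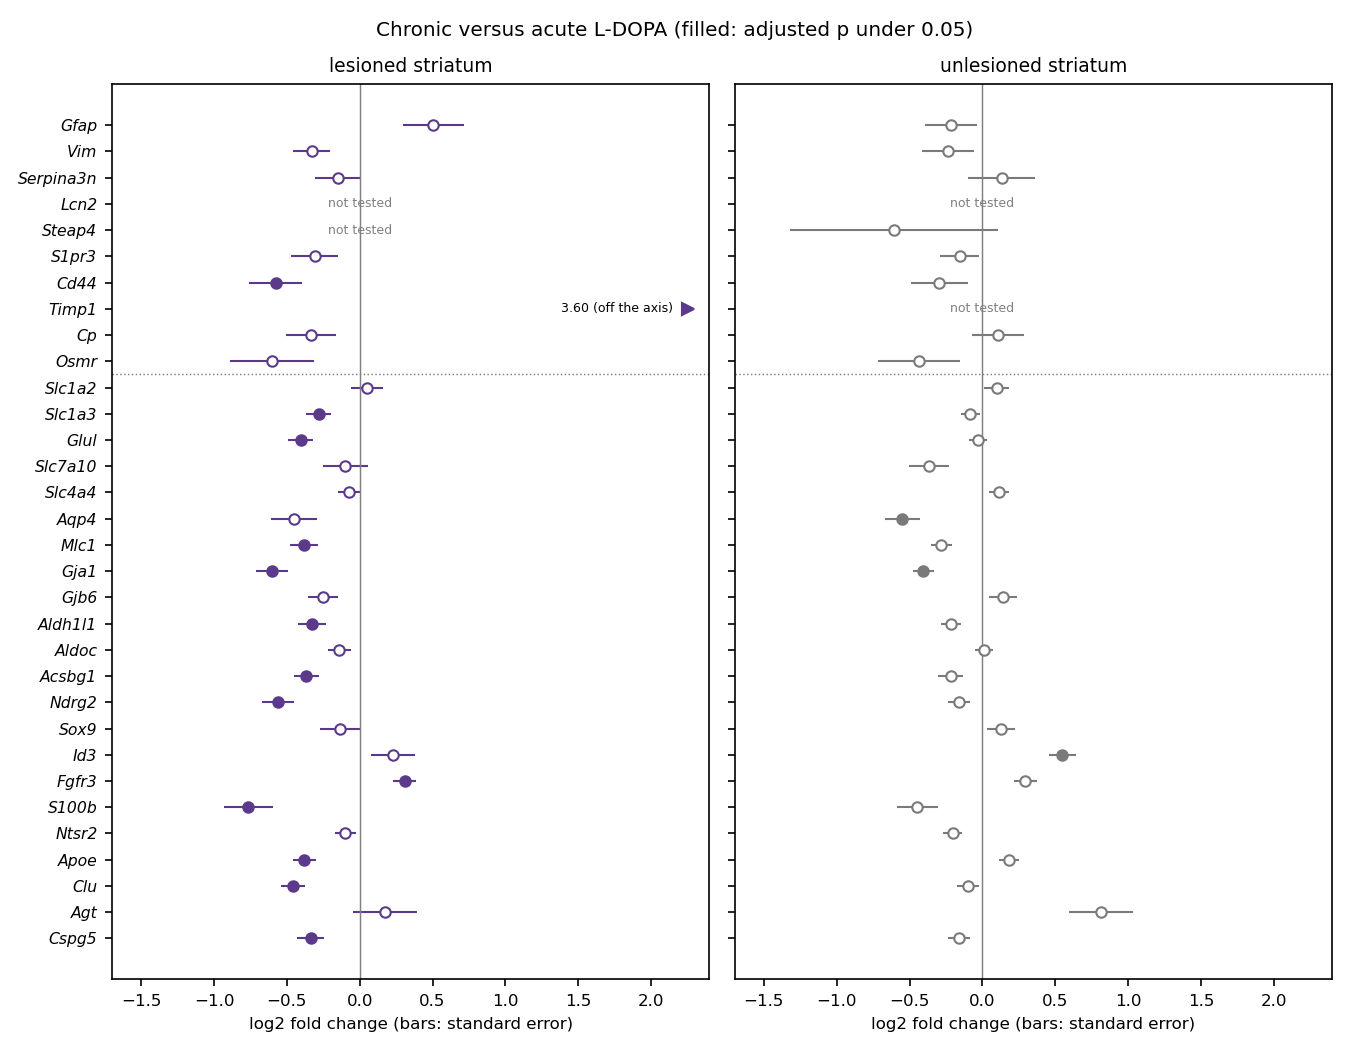
Log2 fold change of chronic over acute L-DOPA for the 32 genes in lesioned (left) and unlesioned striatum (right), with bars for the standard error and filled points at an adjusted p under 0.05. In lesioned striatum 24 of 30 tested values were below 0, and an arrow marks Timp1 at 3.60. In unlesioned striatum 3 genes were called.

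Several lists of other cells and further reactive genes moved in the same direction between these libraries, and other lists did not. Endothelial markers had a median of −0.03 (1 higher and 1 lower of 10) and spiny neuron markers 0.07 (2 higher and 2 lower of 10). The median was 0.06 for cortical (0 higher and 1 lower of 7 tested) and 0.45 for choroid plexus markers (2 higher and 1 lower of 6 tested). Of 22 tested genes of the reactive panels 10 were lower and 2 higher, with a median of −0.66. All 10 oligodendrocyte markers were lower after chronic L-DOPA in lesioned striatum, with a median log2 fold change of −0.84, and their summed level was 2292 to 3808 CPM after acute and 1288 to 2270 CPM after chronic L-DOPA. Of 14 microglia markers 11 were lower (median −0.53, 154 to 187 against 100 to 128 CPM), of 5 oligodendrocyte precursor markers 3, of 5 blood genes 4, and of 8 fibroblast and pericyte markers 4 (median −0.57). No oligodendrocyte or microglia marker was at 0 in any library. Of 20 further astrocyte genes, 10 were lower and 2 higher. These included the claudin gene Cldn10 (−0.80, SE 0.08), Gli3 (−0.69, SE 0.11) and Plcd4 (−0.65, SE 0.11). The part of tissue composition or dissection in the lower levels of the resting astrocyte genes was not tested.

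In unlesioned striatum 30 genes were tested between chronic and acute L-DOPA, and 1 was higher and 2 lower, against 1.07% and 1.99% of all genes. Id3 was at 4.95, 5.63 and 6.26 CPM after acute and 8.07, 7.85 and 8.63 CPM after chronic L-DOPA (log2 fold change 0.55, SE 0.09, edgeR adjusted p = 0.0177). Aqp4, the water channel of astrocyte endfeet, was at 19.8, 16.6 and 18.6 CPM after acute and 10.2, 14.8 and 12.5 CPM after chronic L-DOPA (−0.55, SE 0.12, edgeR adjusted p = 0.0393). Gja1 was at 35.4, 33.5 and 32.2 CPM and then 23.4, 27.2 and 25.6 CPM (−0.41, SE 0.07, edgeR adjusted p = 0.0235). The libraries of each of these 3 genes were separate. All chronic libraries were above the acute ones for 4 of the 30 genes and below for 6, against 12% and 14.6% of all genes. These calls depended on the libraries. Those of Aqp4 and Gja1 were lost in 5 of the 6 fits that left out a library, and that of Id3 in 3. Without replicate 2 of the chronic group, the library with choroid plexus markers, 3 genes were higher and 8 lower, among them Gfap at −0.54 (SE 0.08) and S100b at −0.65 (SE 0.10). Agt was at 4.94, 8.62 and 4.30 CPM after chronic and 2.99, 3.36 and 3.84 CPM after acute L-DOPA, with its highest value in that same library (0.81, SE 0.22, edgeR adjusted p = 0.0696). In this comparison 6 of 14 microglia markers were lower as well.

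The difference between the chronic and the acute lesion effect was tested directly over all 12 libraries. Of 31 genes, 0 changed toward a larger and 2 toward a smaller or negative lesion effect, against 3.53% and 1.56% of all genes. At an unadjusted p under 0.05 there were 7 genes in either direction, against 24739 of all 130867 transcripts tested. DESeq2 called 0 toward a larger and 3 toward a smaller or negative lesion effect. Apoe was higher in lesioned striatum after acute L-DOPA (334 ± 7.13 against 239 ± 15.8 CPM, SD, n = 3 each) and not after chronic L-DOPA (257 ± 15.1 against 270 ± 9.39 CPM, SD, n = 3 each). The log2 difference between these effects was −0.56 (SE 0.10, edgeR adjusted p = 0.00283), and it was called with each of the 12 libraries left out. Glul had lesion effects of 0.15 after acute and −0.23 after chronic L-DOPA, with a difference of −0.38 (SE 0.10, edgeR adjusted p = 0.0476). That call was lost in 10 of 12 fits without a library. With the replicate block, 1 gene changed upward and 7 downward, against 7.3% and 6.13% of all genes. The upward gene was Gfap, at 0.77 with an edgeR adjusted p of 0.00572, against 0.72 (SE 0.33, edgeR adjusted p = 0.248) without the block. The downward genes were Glul, Apoe, Cp, Gjb6, Ndrg2, Clu and Agt. Timp1 had a difference of 3.08 (SE 1.20, edgeR adjusted p = 0.175) and, with counts of 0 to 2 in the unlesioned libraries, it was not separable at this depth. In this test oligodendrocyte markers had a median of −0.52, below 0 for all 10, with 0 called by edgeR (4 lower at an unadjusted p under 0.05) and 7 lower with the block. The medians were −0.37 for oligodendrocyte precursor, −0.79 for ependymal and −4.10 for choroid plexus markers, the last with 1 unlesioned library far above the others. They were −0.16 for microglia, −0.27 for fibroblast and pericyte, −0.39 for cortical and −0.48 for blood genes. The 20 further astrocyte genes had −0.15 (1 called lower), endothelial markers 0.01 and spiny neuron markers 0.21 (2 called higher). The part of other cells in the changes of Apoe and Glul was not tested.

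Compared per transcript length and averaged over all 12 libraries, the 9 most abundant members were resting genes. The 12-library mean was 220 CPM per kb for Apoe, 78.0 for Clu, 74.4 for Glul, 59.6 for Ndrg2 and 47.3 for Aldoc, all in CPM per kb. The order of Clu and Glul differed between the hemispheres, with group means of 70.0 and 76.1 CPM per kb in acute unlesioned and 102 and 83.8 CPM per kb in acute lesioned striatum. Gfap, at a 12-library mean of 11.4 CPM per kb, was the highest reactive gene, with group means from 5.17 CPM per kb in chronic unlesioned to 20.1 CPM per kb in chronic lesioned striatum, where it was above Slc1a3 (18.8), S100b (11.4) and Cspg5 (10.6 CPM per kb). Vim followed at 3.46 CPM per kb and Lcn2, on account of the pair of libraries described above, at 1.44 CPM per kb. Serpina3n was at 0.925, Osmr at 0.219, Timp1 at 0.167, Cd44 at 0.0911 and Steap4 at 0.0439 CPM per kb.

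**Figure D5:**
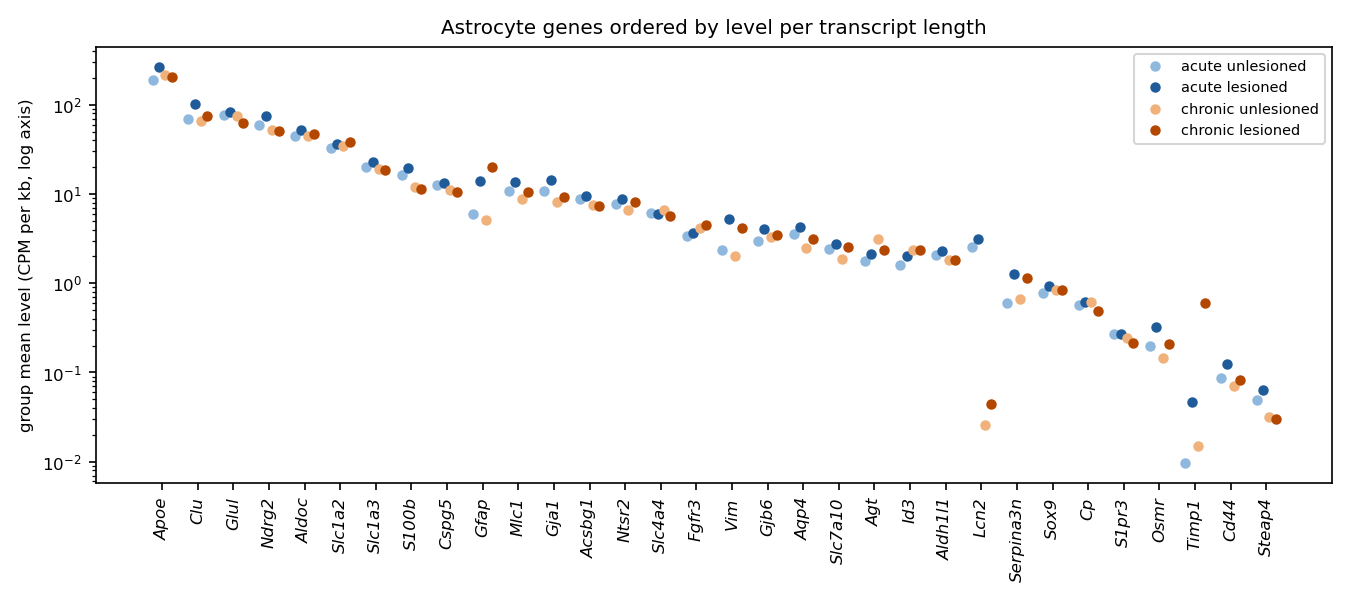
Group mean level of the 32 genes in CPM per kb of transcript on a log axis, ordered by the mean over all libraries, with 1 point for each of the 4 groups. Gfap, Vim, Timp1 and Lcn2 show the widest spread between groups, and Apoe is the highest gene at 220 CPM per kb.

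The other transcripts of these genes share exons and reads with the ones followed and are not independent. Over all transcripts tested, 6.85% were called higher after acute and 7.71% after chronic L-DOPA, and 1.3% lower in the test of the change of the lesion effect. All 5 Gfap transcripts were called higher in lesioned striatum after both treatments, with log2 fold changes of 1.14 to 1.26 after acute and 1.84 to 1.97 after chronic L-DOPA. All 11 Vim transcripts were called after both treatments, and all 12 Clu and all 8 Apoe transcripts after acute L-DOPA. Of 27 tested Cd44 transcripts 6 were called after acute L-DOPA, with values of 0.35 to 1.00 over the 27. In the test of the change of the lesion effect, all 8 Apoe and 9 of 14 Glul transcripts were called.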

How the data were processed

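RNA from 12 striatal libraries (TruSeq RNA kit, Genome Analyzer II) was aligned by the authors to mm9 on the Genomatix Mining Station. The deposited table gives counts per transcript, with a read counted on every transcript it overlaps; strand and multimapping settings were not given in the sources used here. The authors' normalized expression values (a signal per transcript) were deposited beside the counts, and were checked but not tested. The deposited DESeq comparisons (fold changes and p-values) and 36 columns of per-sample values were not used.

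Counts of transcripts that name a gene were tested with edgeR 4.0.16 (R 4.3.3; TMM scaling, low-count filter by group, quasi-likelihood F test), over all transcripts, with Benjamini-Hochberg adjustment and a threshold of 0.05. The 296 transcripts naming no gene, with 0.0485% of counts, were left out. Each comparison used its own 6 libraries, and the change of the lesion effect all 12. Standard errors were derived from the fold change and its F statistic. The text names all 32 genes of the list, and of each further list at most the 3 called genes with the largest change. The members and lists were chosen with earlier results of these data known. The edgeR scripts were tested on simulated data. Alternatives were DESeq2 1.42.0, median-of-ratios scaling, no filter, single or summed transcripts, all 12 libraries in the fit, a threshold of 0.01, a replicate block and leaving out each library.

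Deviations from group means of libraries with the same number, over 12795 genes, correlated at 0.473, 0.466 and 0.386 between the acute hemispheres. Between the chronic ones they correlated at 0.515, 0.571 and 0.158, so the numbers were taken as pairs within each treatment. The highest value between different numbers within a treatment was 0.153, for chronic unlesioned replicate 3 and chronic lesioned replicate 1. Between treatments, and so between different mice, the highest was 0.412, for acute unlesioned and chronic lesioned replicate 3. The correlations therefore do not settle the pairing, above all for replicate 3, and the labels do not say that a number marks a mouse. The series text counts 12 mice, 3 for each of 4 conditions, which taken literally would put the hemispheres in different mice, so values with the block rest on a pairing the labels do not state. The p-values measure the spread between these libraries. Library totals ranged from 87695043 to 173116525 counts. Counting intervals and the level of 3 counts cover counting error only. Promoters came from RefSeq (GRCm38.p6).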

Additional observations from a re-analysis of the deposited data

Results flagged for a closer look

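The lesion effect of 2 resting genes differed between chronic and acute L-DOPA by the test of the difference itself, the interaction term of the edgeR fit over all 12 libraries. The difference was −0.56 on the log2 scale for Apoe (SE 0.10, edgeR adjusted p = 0.00283), with lesioned libraries above the unlesioned ones in 3 of 3 libraries after acute L-DOPA. It was −0.38 for Glul (SE 0.10, edgeR adjusted p = 0.0476, and 0.00896 to 0.191 over the alternatives), a call lost in 10 of 12 fits without a library. Microglia markers, which share Apoe with astrocytes, had a median difference of −0.16 over 14 genes in the same test, oligodendrocyte markers −0.52 over 10 genes, oligodendrocyte precursor markers −0.37 over 5 genes, ependymal markers −0.79 over 6 genes and choroid plexus markers −4.10 over 6 tested genes. The median was −0.15 over 20 further astrocyte genes, 0.01 over 10 endothelial markers and 0.21 over 10 spiny neuron markers. The part of other cells in either result was not tested.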

How the results depend on the processing

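The replicate block, which uses the numbers as pairs between hemispheres, raised the genes called higher to 18 after acute and 10 after chronic L-DOPA and those called lower after chronic L-DOPA to 4, and gave 1 higher and 7 lower for the change of the lesion effect. Between chronic and acute L-DOPA the numbers do not pair the libraries (correlations of −0.094, −0.148 and 0.233 in lesioned and −0.068, −0.016 and 0.142 in unlesioned striatum). There the block gave 2 higher and 10 lower in lesioned and 1 higher and 1 lower in unlesioned striatum. After acute L-DOPA, 8 instead of 11 genes were higher at an adjusted p under 0.01, 9 with summed transcripts (without Aldoc, Ndrg2 and Id3 and with Cd44), 10 with all 12 libraries or a single transcript per gene, and 8 to 10 with a library left out. At an adjusted p under 0.01, 3 genes were higher after chronic L-DOPA, 1 was higher and 6 lower in lesioned striatum, 0 and 0 in unlesioned striatum, and 1 lower for the change of the lesion effect. Fitting all 12 libraries gave 2 lower genes after chronic L-DOPA and 1 lower in unlesioned striatum. In unlesioned striatum DESeq2 gave 2 higher and 4 lower, no filter 2 higher, and summed transcripts 0 and 0. For the change of the lesion effect, median-of-ratios scaling, no filter, a single transcript per gene and summed transcripts each gave 1 lower, with Glul lost, as did leaving out replicate 2 of both acute groups, an alternative chosen after seeing the data. Leaving out each library gave 1 to 3 higher and 7 to 13 lower in lesioned striatum, 0 to 3 higher and 0 to 8 lower in unlesioned striatum, and 1 to 2 lower for the change of the lesion effect. The causes were not tested. No result of the list changed direction while called. Depth limits Timp1 and Lcn2, which were at or below 3 counts in several libraries.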
